A study of Homo sapiens with 15 samples.

Results

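The line studied here is IDH2R140Q, TF-1 cells in which base editing placed the R140Q substitution into IDH2, and it was compared with the unedited Parental cells. TF-1 is a human erythroleukaemia cell line that needs a cytokine such as GM-CSF to grow. The 2 groups hold 3 RNA libraries each, 6 of the 15 libraries of the series. The other 9 libraries come from 3 further base-edited lines, IDH1R132H, IDH2R140W and IDH2R172K, with 3 libraries each, and they serve here only to show where IDH2R140Q differed from edited cells in general.

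The medium of every line was RPMI-1640, to which 10% FBS and 1% penicillin/streptomycin were added. Parental cells also received recombinant human GM-CSF at 2 ng/ml, and all 4 edited lines went without it. Genotype and medium therefore change together between IDH2R140Q and Parental, and their effects cannot be told apart in that comparison. The 4 edited lines shared one medium. The labels give 1 line per genotype and do not say whether a line is a clone or a pool, or whether the 3 libraries of a group came from separate cultures. P-values thus reflect the spread among these particular libraries, and that spread may be purely technical.

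IDH2 encodes the mitochondrial isocitrate dehydrogenase that turns isocitrate into 2-oxoglutarate with NADP. Substitutions at its active-site arginines, R140 and R172, give the enzyme a new activity that reduces 2-oxoglutarate to 2-hydroxyglutarate. That metabolite competes with 2-oxoglutarate at dioxygenases, among them the TET enzymes that oxidise methylated DNA and the JmjC enzymes that remove histone methyl groups. In myeloid leukaemia such mutations are known for increased DNA methylation and a block of differentiation.

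The deposited values are gene levels and do not show which allele was read, so the edit itself was not checked.

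Levels are given in TPM, which scales each transcript for its length and each library to a fixed total. TPM keeps no read depth. The depth behind a value is therefore unknown, and counting error cannot be stated. Differences are on the log2(TPM + 1) scale, IDH2R140Q minus Parental, and that scale understates the change of genes at low level. A gene was called where the log2 difference was at least 1, a 2-fold change, with an adjusted p from limma under 0.05. Errors of levels are SD over n = 3 libraries, and errors of log2 differences are standard errors. An exact permutation test of 3 libraries against 3 cannot go below p = 0.1, so each adjusted p rests on a spread shared across genes and over all 15 libraries.

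Of 56624 gene symbols, 14881 reached at least 1 TPM in 3 libraries and were tested. Between IDH2R140Q and Parental 1492 were called, 10.0% of those tested, with 1125 higher (7.56%) and 367 lower (2.47%). The groups did not overlap for 53.9% of genes, with the IDH2R140Q libraries above in 40.4% and below in 13.5%, and IDH2R140Q lay outside the 9 other edited libraries for 15.1%. The median gene stood 0.23 above Parental, and the balance of calls depended on that shift: after median-ratio scaling 719 genes were higher and 577 lower, and after quantile normalisation 639 and 609. With a pseudocount of 5, which shrinks the differences of genes at low TPM, 536 genes were called. Parental replicate 2 stood apart in its group, with ribosomal protein genes at 21.1% of its TPM against 16.8% and 17.9% in the other two. IDH2R140Q replicate 2 listed 28116 symbols above 0 against 18685 and 20668, and held 6.91% mitochondrially encoded TPM against 5.65% and 5.68%. Of protein-coding symbols that stand on more than 1 row of the table, 67.2% were listed at 0 in all 15 libraries, against 7.86% of those on 1 row. They include PGK1, TPI1 and FLNA, which nearly every cell uses, and GATA1, CSF2RA and IL3RA. A listed 0 is therefore not read as absence, and no fold change is given against it.

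**Figure D1:**
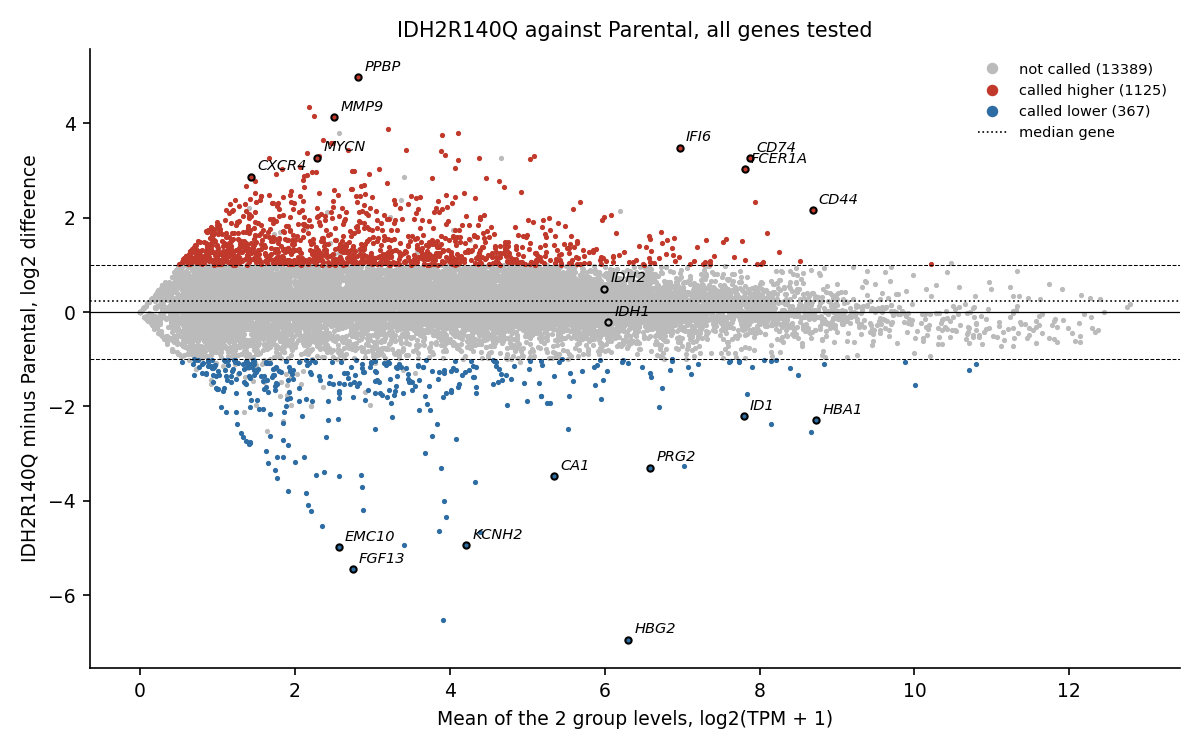
Log2 difference between IDH2R140Q and Parental (y axis) against the mean of the 2 group levels on the log2(TPM + 1) scale (x axis) for the 14881 genes tested, with called genes in colour, the 2-fold limits dashed and the median gene dotted. The globin HBG2 lies lowest at −6.95 and the platelet chemokine PPBP highest at 4.97, while IDH1 and IDH2 lie inside the 2-fold limits.

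The labelled cell type was checked on its markers. GATA2, a transcription factor of blood progenitors, was at 353 ± 31.6 TPM in Parental and 383 ± 2.34 in IDH2R140Q. Of 14 TF-1 markers 11 reached 1 TPM in at least 1 of the 6 libraries, and the other 3, GATA1, CSF2RA and IL3RA, are among the multi-row symbols listed at 0. Of the 11 that were tested 4 fell, HBG1, HBG2 and KIT among them, and 1 rose, CD34. The summed level ran from 2094 to 2460 TPM in Parental and from 1719 to 1735 in IDH2R140Q, and the groups did not overlap. HBG2 alone made up 706, 1134 and 801 TPM of the sums in Parental and 5.42, 7.49 and 5.31 in IDH2R140Q. The lower sum therefore does not show a fall of the markers as a group. Of 10 monocyte markers 4 reached 1 TPM, and their summed level ran from 109.5 to 140.4 TPM in Parental and from 117.2 to 127.3 in IDH2R140Q, nearly all of it lysozyme, LYZ, with CD14 at 0.43 TPM or less. Of 14 stromal and epithelial markers 5 reached 1 TPM, and the keratins KRT8 and KRT18 made up most of the sum, which ran from 637.2 to 658.9 TPM in IDH2R140Q and from 695.0 to 737.9 in Parental. COL1A1 and DCN stayed at 0.79 TPM or less in the 6 libraries. Of the 4 stromal and epithelial markers tested 1 rose, the endothelial cadherin CDH5 (0.747 ± 0.212 to 4.86 ± 0.307 TPM, log2 difference 1.75), and none fell.

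The transcripts of IDH1 and IDH2 were considered first. IDH2 was at 52.2, 49.9 and 56.2 TPM in Parental, and IDH2R140Q held 75.8, 74.5 and 73.8. The groups did not overlap, and the log2 difference of 0.50 ± 0.081 passed the adjusted p (limma, 0.000242) but not the 2-fold limit. IDH1, the cytosolic enzyme, was at 66.3, 70.7 and 73.9 TPM in Parental and at 57.5, 56.4 and 67.0 in IDH2R140Q. Those groups overlapped and the difference did not pass (−0.22 ± 0.094, limma adjusted p = 0.0704). Against the mean of the other 3 edited lines IDH2R140Q held more of both, by 0.81 ± 0.066 for IDH2 (limma adjusted p = 8.42e-07) and by 0.71 ± 0.077 for IDH1 (1.07e-05), again under 2-fold.

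Enzymes around 2-hydroxyglutarate and 2-oxoglutarate followed. Of 12 isocitrate dehydrogenases and 2-hydroxyglutarate enzymes tested none was called against Parental. D2HGDH, which oxidises the form of 2-hydroxyglutarate that mutant IDH2 makes, was at 15.7 ± 2.38 TPM against 10.7 ± 3.26, with overlapping groups (0.54, limma adjusted p = 0.0576). Against the other edited lines D2HGDH was higher by 1.00 ± 0.178 (limma adjusted p = 0.000708), where 1.92% of all genes were called higher, and its IDH2R140Q libraries lay above all 9 of theirs.

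Genes whose protein products need 2-oxoglutarate, and readers of DNA methylation, were counted as lists. Of 17 genes for TET enzymes, DNA methyltransferases and methyl-DNA readers none was called, and 1 was higher without Parental replicate 1. DNMT1, the maintenance methyltransferase, was at 315 ± 21.8 TPM against 209 ± 19.1 in Parental (0.59, limma adjusted p = 0.000269), and TET2, a methylcytosine dioxygenase, at 6.08 ± 0.263 against 3.16 ± 0.963 (0.79, 0.00985), both under 2-fold. Of 19 JmjC demethylases 2 were higher (10.5%, near the 7.56% of all genes), among them JMJD1C at 33.5 ± 1.99 TPM against 15.7 ± 0.934. Its log2 difference of 1.04 fell under the limit without IDH2R140Q replicate 2 (0.99), after median-ratio scaling (0.79), after quantile normalisation (0.78) and with a pseudocount of 5 (0.89). None of the 19 passed in those 4 settings, and 4 did without Parental replicate 1. Of 25 other 2-oxoglutarate dioxygenases, 30 genes of the TCA cycle and 23 of branched-chain amino acid breakdown none was called, with list medians of 0.04, 0.18 and −0.06 beside 0.23 for all genes. After median-ratio scaling 1 of the dioxygenases and 1 of the branched-chain genes were lower.

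Globin transcripts were lower in IDH2R140Q, and all of those tested except HBD passed the 2-fold limit. Globins carry oxygen as pairs of alpha-type and beta-type chains, and the erythroid lineage switches from embryonic to fetal to adult chains during development. Of 9 globins tested 8 were called lower and none higher, where 2.47% of all genes were called lower, and the list median was −3.46. HBG2, a fetal gamma chain, was measured at 706, 1134 and 801 TPM in Parental, whereas IDH2R140Q held 5.42, 7.49 and 5.31 (log2 difference −6.95 ± 0.196, limma adjusted p = 1.14e-11). HBG1, the other gamma chain and a near-identical copy to which reads may be assigned wrongly, was at 110.3, 199.7 and 122.0 TPM against 0.25, 0.36 and 1.09 (−6.52 ± 0.231, 1.87e-10). For both genes the lowest Parental library lay far above the highest IDH2R140Q library. In bulk RNA fewer cells that express a gene and less of its RNA per cell cannot be told apart.

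Differences ranged widely over the chains. The embryonic zeta chain HBZ fell from 104.7 ± 11.3 to 3.19 ± 0.739 TPM (log2 difference −4.67), the embryonic epsilon chain HBE1 from 14.9 ± 1.53 to 0.457 ± 0.27 (−3.46), and the adult beta chain HBB from 69.0 ± 8.31 to 4.76 ± 0.353 (−3.60). The adult alpha chains kept more of their level: HBA1 was at 842, 1091 and 890 TPM in Parental and at 191.0, 189.6 and 191.5 in IDH2R140Q (−2.29 ± 0.095, limma adjusted p = 6.42e-10). HBA2, its near-identical copy, fell from 646 ± 85.3 to 122.9 ± 1.63 TPM (−2.38), and the theta chain HBQ1 from 43.8 ± 3.52 to 15.96 ± 3.096 (−1.42). HBD, the minor adult delta chain, was at 42.8 ± 2.62 against 57.2 ± 4.16 TPM and was not called (−0.41, limma adjusted p = 0.00364). All globins together held 0.252%, 0.349% and 0.270% of TPM in Parental and 0.0388%, 0.0387% and 0.0388% in IDH2R140Q.

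Some other red cell genes were lower as well. Of 31 genes for red cell membrane proteins and enzymes 9 fell and none rose, with a list median of −0.47. KCNH2, a potassium channel, was at 112.1, 87.6 and 107.4 TPM in Parental and at 2.11, 2.50 and 2.40 in IDH2R140Q (log2 difference −4.95 ± 0.126, limma adjusted p = 5.44e-12). CA1 and CA2, the carbonic anhydrases of red cells, were at 11.2 ± 1.18 against 135 ± 12.2 TPM (−3.48) and at 2.82 ± 1.03 against 59.1 ± 2.59 (−4.01). AHSP, the chaperone of free alpha globin, fell from 23.8 ± 1.26 to 4.91 ± 1.16 TPM (−2.08), and the Rh blood group protein RHCE from 34.1 ± 2.43 to 15.8 ± 0.576 (−1.06).

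Most genes of haem synthesis and most erythroid factors were not called, though the haem list fell more often than all genes did. Of 18 genes of haem synthesis and breakdown 3 fell (16.7%, against 2.47% of all genes) and none rose. The list median was −0.24, and 7 fell after median-ratio scaling and 6 after quantile normalisation. The 3 that fell were ALAS2, the erythroid enzyme of the first step (19.6 ± 2.68 to 3.42 ± 0.797 TPM, −2.23), BLVRB, a biliverdin reductase (303 ± 13.1 to 146.8 ± 8.78, −1.04), and TMEM14C, which serves porphyrin transport in mitochondria (283 ± 31.5 to 136 ± 1.95, −1.05). TMEM14C was under 2-fold without Parental replicate 2 (−0.96). Of 19 erythroid transcription factors and cofactors 1 fell, the helix-loop-helix repressor HES6 (155.1 ± 13.7 to 59.4 ± 7.02 TPM, −1.37, limma adjusted p = 5.03e-08). KLF1, the activator of beta-globin, was at 108.9 ± 2.68 against 139.1 ± 1.79 TPM (−0.35) and was not called.

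**Figure D2:**
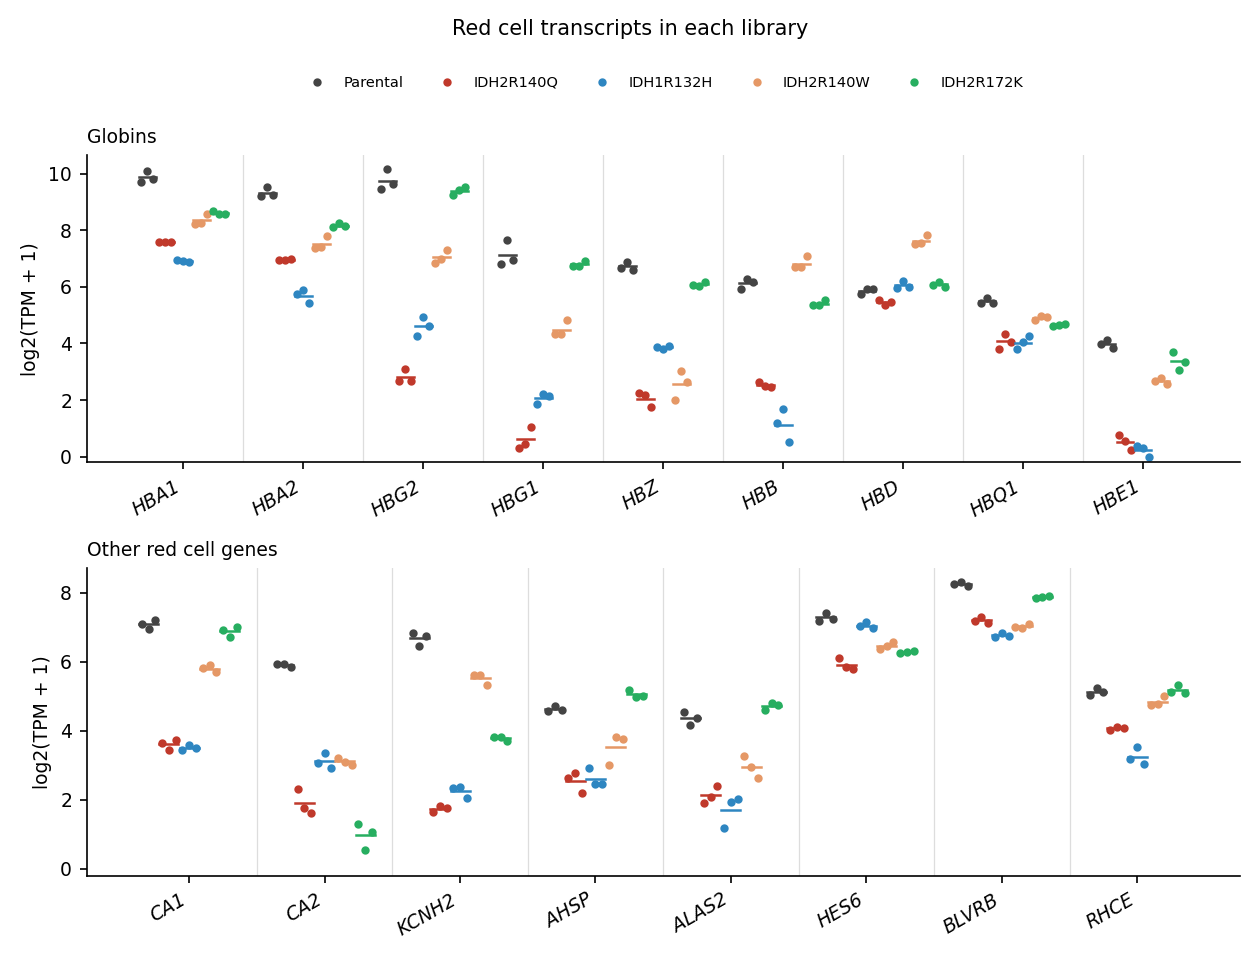
Level of 9 globins (top) and 8 other red cell genes (bottom) on the log2(TPM + 1) scale in each of the 15 libraries, with 1 point per library and a bar at each group mean. IDH2R140Q lies below Parental for every gene drawn, HBG2 and HBG1 are lower in it than in any other group, and HBD differs least from Parental.

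Against the other 3 edited lines, which also grew without GM-CSF, 461 genes were called in IDH2R140Q (3.10% of those tested), with 286 higher (1.92%) and 175 lower (1.18%). Among them were 6 globins, all lower: HBG2, HBG1, HBZ, HBB, HBE1 and HBD. HBG2 was at 24.0 ± 5.75 TPM in IDH1R132H, 133 ± 22.8 in IDH2R140W and 676 ± 62.4 in IDH2R172K, so all 9 libraries lay above the 5.31 to 7.49 of IDH2R140Q (log2 difference −4.21 ± 0.16, limma adjusted p = 7.16e-10). HBA1, HBA2 and HBQ1 were not called in this comparison (−0.37, −0.17 and −0.46). Of the other red cell genes KCNH2, CA1 and AHSP were lower than in the other edited lines (−2.12, −1.79 and −1.19), while CA2 was not called (−0.50).

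Megakaryocyte and platelet transcripts held more rises than falls. Red cells and platelets arise from a shared progenitor, and TF-1 cells carry transcripts of both lineages. Of 33 megakaryocyte and platelet genes 18 rose and 2 fell, where 7.56% of all genes rose, and the list median was 1.09. PPBP, the chemokine of platelet alpha granules, was at 0.55, 0 and 0.25 TPM in Parental and at 37.2, 38.9 and 38.6 in IDH2R140Q (log2 difference 4.97 ± 0.223, limma adjusted p = 1.23e-09). LTBP1, which holds latent TGF-beta in the matrix, was at 1.73, 1.25 and 1.25 TPM against 37.2, 32.5 and 33.5 (3.88 ± 0.143, 2.61e-10). F13A1, a clotting factor that crosslinks fibrin, was at 4.84, 2.60 and 3.50 TPM against 61.0, 61.1 and 65.7 (3.80 ± 0.157, 6.42e-10). In all 3 the IDH2R140Q libraries also lay above the 9 libraries of the other edited lines.

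ITGB3, the beta-3 chain of the platelet fibrinogen receptor, rose from 5.83 ± 1.98 to 62.2 ± 2.03 TPM (3.26), and the platelet P-selectin SELP from 1.997 ± 0.546 to 23.1 ± 1.11 (3.03). ITGA2B, the partner of ITGB3, was at 400 ± 7.32 against 291 ± 7.89 TPM and was not called (0.46, limma adjusted p = 2.73e-06). TUBB1, the platelet form of beta-tubulin, rose from 1.09 ± 0.255 to 4.71 ± 0.395 TPM (1.46). Among the genes that fell was GP9, a subunit of the von Willebrand factor receptor (13.7 ± 1.13 to 6.07 ± 2.26 TPM, −1.11). GP9 was under 2-fold without IDH2R140Q replicate 3 (−0.83), and with a pseudocount of 5 so were GP9 (−0.77) and TUBB1 (0.67).

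Genes of mast cells and basophils moved both ways. Of 25 such genes 6 rose (24.0%) and 4 fell (16.0%), against 7.56% and 2.47% of all genes. With a pseudocount of 5 only 1 rose and 1 fell. FCER1A, the IgE-binding chain of that antibody's high-affinity receptor, was at 76.5, 86.0 and 70.3 TPM in Parental and at 631.6, 599.5 and 680.1 in IDH2R140Q (log2 difference 3.02 ± 0.073, limma adjusted p = 4.01e-12), above all other edited libraries. PRG2, the major basic protein of eosinophil granules, was at 208.7, 451.4 and 268.1 TPM against 26.5, 29.9 and 30.6 (−3.30 ± 0.269, 4.32e-07), below all other edited libraries. KIT, the stem cell factor receptor, fell from 8.50 ± 1.60 to 2.31 ± 0.497 TPM (−1.52). CLC, CPA3 and MS4A2, markers of basophil and mast cell granules or IgE signalling, rose to between 2.22 and 2.497 TPM on average from 0.413 or less, and after quantile normalisation MS4A2 was under 2-fold (0.94). With a pseudocount of 5 KIT (−0.88), CLC (0.56), CPA3 (0.46) and MS4A2 (0.41) were all under 2-fold.

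Of 23 stem and progenitor genes 10 rose (43.5%) and 2 fell (8.7%), against 7.56% and 2.47% of all genes. After quantile normalisation 5 rose. MYCN, a MYC-family transcription factor, was at 0.65, 0.62 and 0.45 TPM in Parental and at 13.5, 14.1 and 14.95 in IDH2R140Q (3.27 ± 0.122, limma adjusted p = 2.61e-10). CD34, the surface marker of blood progenitors, rose from 153 ± 30.4 to 485 ± 9.67 TPM (1.68), RUNX1, a master factor of blood development, from 39.3 ± 13.1 to 123 ± 10.3 (1.68), the adhesion receptor GPR56 from 9.76 ± 3.35 to 39.8 ± 2.99 (1.97), and BCL2, an inhibitor of cell death, from 2.75 ± 0.576 to 12.04 ± 1.23 (1.80). KIT and RUNX2 fell, RUNX2 from 10.8 ± 0.752 to 4.25 ± 0.321 TPM (−1.17). MYC itself was at 340 ± 4.54 against 431 ± 21.0 TPM and was not called (−0.34).

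HOX proteins set identity in blood progenitors and bind DNA with PBX and MEIS cofactors. Of 17 HOXA and HOXB genes 2 fell (11.8%, against 2.47% of all genes), HOXA4 (−1.16) and HOXA5 (−1.11), and the list median was −0.58. After either scaling alternative 6 fell, and with a pseudocount of 5 none did. HOXA4 and HOXA5 lie on a part of chromosome 7 where all 4 edited lines stood below Parental, described further on. Of 7 cofactors 3 rose (42.9%, against 7.56% of all genes), among them MEIS1 from 1.98 ± 1.02 to 17.5 ± 1.71 TPM (2.699) and PBX4 from 3.89 ± 0.27 to 13.5 ± 1.56 (1.56).

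Many genes of the interferon response rose. Interferons bind surface receptors, Janus kinases phosphorylate STAT proteins, and these join IRF9 to form a complex that binds the interferon-stimulated response element in promoters. The target genes encode sensors of foreign nucleic acid and proteins that restrain virus growth. Over 3 lists, of signalling factors, nucleic acid sensors and effectors, 104 of 121 members were tested. Of these 42 rose, 2 fell and the others did not pass the test, where 7.56% of all genes rose and 2.47% fell.

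Ligands and receptors came first. No interferon gene on the list reached the level needed for a test, and IFNB1 and IFNG were at 0.23 TPM or less in all 6 libraries. Of 5 receptor genes tested none was called. IFNAR2, a chain of the type I receptor, was at 62.2 ± 2.77 TPM against 38.3 ± 3.46 in Parental (0.69, limma adjusted p = 1.6e-05).

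Of 18 JAK, STAT and IRF genes and their inhibitors 4 rose (22.2%) and 1 fell (5.6%), against 7.56% and 2.47% of all genes. IRF9 was at 14.0, 9.09 and 6.58 TPM in Parental and at 43.7, 43.5 and 40.2 in IDH2R140Q (log2 difference 2.05 ± 0.214, limma adjusted p = 4.46e-06). STAT2, a partner of IRF9, was at 28.3 ± 1.17 TPM in IDH2R140Q against 15.9 ± 2.07 in Parental and was not called (0.80, limma adjusted p = 0.000447). USP18, a feedback inhibitor of the type I receptor, rose from 2.85 ± 0.245 to 13.3 ± 1.64 TPM (1.89), and IRF7, which drives interferon alpha genes, from 7.99 ± 1.21 to 23.2 ± 0.199 (1.44). SOCS3, a feedback inhibitor of Janus kinases, fell from 35.6 ± 5.36 to 10.1 ± 0.436 TPM (−1.71).

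Of 27 nucleic acid sensors and adaptors 12 rose (44.4%) and none fell. OAS1 and OAS3 make the messenger 2-5A on double-stranded RNA. OAS1 was listed at 0 throughout Parental, while IDH2R140Q held 21.6, 17.4 and 19.7 TPM, and OAS3 was at 0.90, 0.38 and 0.56 TPM against 18.6, 17.0 and 18.7 (3.58 ± 0.236, limma adjusted p = 5.19e-08). IFIH1, the sensor of long double-stranded RNA, rose from 3.65 ± 0.595 to 17.0 ± 0.927 TPM (1.96), and EIF2AK2, the kinase that stops translation on double-stranded RNA, from 24.1 ± 6.73 to 64.7 ± 2.90 (1.42). OAS2 and the helicase DDX60 rose from less than 0.1 TPM on average to 2.68 ± 0.0924 and 2.36 ± 0.578, and with a pseudocount of 5 both were under 2-fold (0.597 and 0.54). Against the other edited lines 5 sensors were higher, and OAS1, OAS3, OAS2 and EIF2AK2 were among them (1.93, 1.79, 1.18 and 1.29).

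Of 60 interferon effectors 26 rose (43.3%) and 1 fell, and 11 were higher than in the other edited lines, with none lower. IFI6, a protein of mitochondria and the endoplasmic reticulum, was at 32.8, 39.7 and 36.7 TPM in Parental and at 419, 431 and 402 in IDH2R140Q (log2 difference 3.49 ± 0.078, limma adjusted p = 2.27e-12). IFI44L was at 0.04, 0 and 0.33 TPM against 22.2, 17.6 and 17.0 (4.15 ± 0.217, 5.11e-09), and its neighbour on the chromosome IFI44 rose from 9.77 ± 3.46 to 98.3 ± 5.47 (3.25). The 3 IDH2R140Q libraries lay above all 12 others for each of these 3 genes. ISG15, a ubiquitin-like modifier, was at 17.5, 27.9 and 21.0 TPM against 111.6, 114.4 and 112.9 (2.33 ± 0.133, 1.29e-08). TRIM22, a ubiquitin ligase, rose from 1.96 ± 0.796 to 15.01 ± 2.18 TPM (2.47). MX2 was listed at 0 in Parental and at 1.08, 1.39 and 1.15 TPM in IDH2R140Q, while MX1 stayed at 0.81 or less in the 6 libraries and was not tested. The effector that fell was LGALS3BP, a secreted glycoprotein (201 ± 41.4 to 88.5 ± 2.91 TPM, −1.15).

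Promoter stretches of 4 of these genes that hold the core of the response element are printed as examples. The core of the response element was searched as GAAA, any 2 bases and GAAA again, on both strands, in the 250 bases before each gene's start, in RefSeq promoters of GRCh38.p14. The 4 stretches below are from IFI6, IFI44L, OAS3 and ISG15, each 5′ to 3′ on the gene's own strand, with the matches in capitals. They begin 181, 189, 168 and 138 bases before the start and end 59, 39, 1 and 73 bases before it. The loci are chr1:27672251-27672373 (minus strand), chr1:78620259-78620409, chr12:112938306-112938473 and chr1:1013359-1013424 (plus strand).
IFI6: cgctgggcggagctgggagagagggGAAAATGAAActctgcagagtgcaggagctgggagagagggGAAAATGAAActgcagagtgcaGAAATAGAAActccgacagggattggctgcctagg
IFI44L: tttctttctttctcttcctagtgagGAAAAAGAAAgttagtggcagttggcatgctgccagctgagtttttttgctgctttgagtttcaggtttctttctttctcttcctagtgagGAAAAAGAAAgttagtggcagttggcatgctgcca
OAS3: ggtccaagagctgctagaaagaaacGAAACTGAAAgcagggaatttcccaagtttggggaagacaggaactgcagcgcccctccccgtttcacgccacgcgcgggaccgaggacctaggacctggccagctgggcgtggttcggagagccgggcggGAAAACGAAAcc
ISG15: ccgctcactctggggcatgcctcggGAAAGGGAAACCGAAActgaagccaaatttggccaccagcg
IFI6 holds 3 matches and the other promoters 2 each, and in ISG15 the 2 matches overlap. Of the 42 interferon genes that rose, 26 had a promoter in the table, and 14 of those (53.8%) held the core. So did 13 of 28 tested interferon genes that were not called (46.4%), 148 of the 6569 tested genes with a promoter (2.25%) and 709 of all 22114 promoters (3.21%). The core was thus about as frequent in interferon genes that were not called as in those that rose. The GATA motif AGATAA was present in 5 of the 26 (19.2%), in 3 of the 28 (10.7%), in 4.37% of tested genes and in 9.72% of all promoters. A match is a description of the sequence and not a measured binding site.

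A part of the genes of antigen presentation rose. HLA class II molecules display peptides to helper T cells, and CIITA is the coactivator that switches on their genes. Of 18 class II genes 8 rose (44.4%, against 7.56% of all genes) and none fell. The same 8 were higher than in the other edited lines. CIITA was at 2.19, 1.86 and 3.71 TPM in Parental and at 23.5, 22.1 and 21.4 in IDH2R140Q (log2 difference 2.73 ± 0.186, limma adjusted p = 6.94e-08). CD74, the invariant chain, was at 84.9, 65.0 and 74.9 TPM against 752, 727 and 703 (3.27 ± 0.083, 5.44e-12). HLA-DRB5, a beta chain, was at 1.29, 1.06 and 0.55 TPM against 22.4, 19.5 and 18.1 (3.43 ± 0.191, 9.91e-09). For all 3 the IDH2R140Q libraries lay above the 12 others.

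HLA-DRA, HLA-DRB1, HLA-DQA1, HLA-DQB1 and HLA-DPB1 rose by 3.23, 2.13, 3.37, 2.52 and 1.46. These 5 stand on several rows of the table that were summed, and near-identical HLA genes can share reads. Without symbols on more than 1 row 3 class II genes were called higher, CIITA, CD74 and HLA-DRB5. In IDH2R172K CD74 was at 481 ± 9.39 TPM, in IDH2R140W at 131.5 ± 9.33 and in IDH1R132H at 39.9 ± 1.55, so the edited lines lay on both sides of the 74.9 ± 9.93 of Parental.

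Class I molecules display peptides to cytotoxic T cells. Of 17 class I genes 5 rose (29.4%, against 7.56% of all genes). Among them were HLA-B, from 4.81 ± 0.722 to 47.3 ± 3.24 TPM (3.06), HLA-C, from 30.6 ± 1.03 to 126 ± 7.80 (2.01), and NLRC5, the class I coactivator, from 7.65 ± 2.60 to 21.8 ± 0.99 (1.44). HLA-B and HLA-C stand on several rows. Without symbols on more than 1 row 3 class I genes were higher, and without Parental replicate 3, 8. B2M, the light chain of class I, was at 1582 ± 67.9 against 1478 ± 203 TPM with overlapping groups (0.11, limma adjusted p = 0.359). Of 19 proteasome and immunoproteasome genes none was called.

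**Figure D3:**
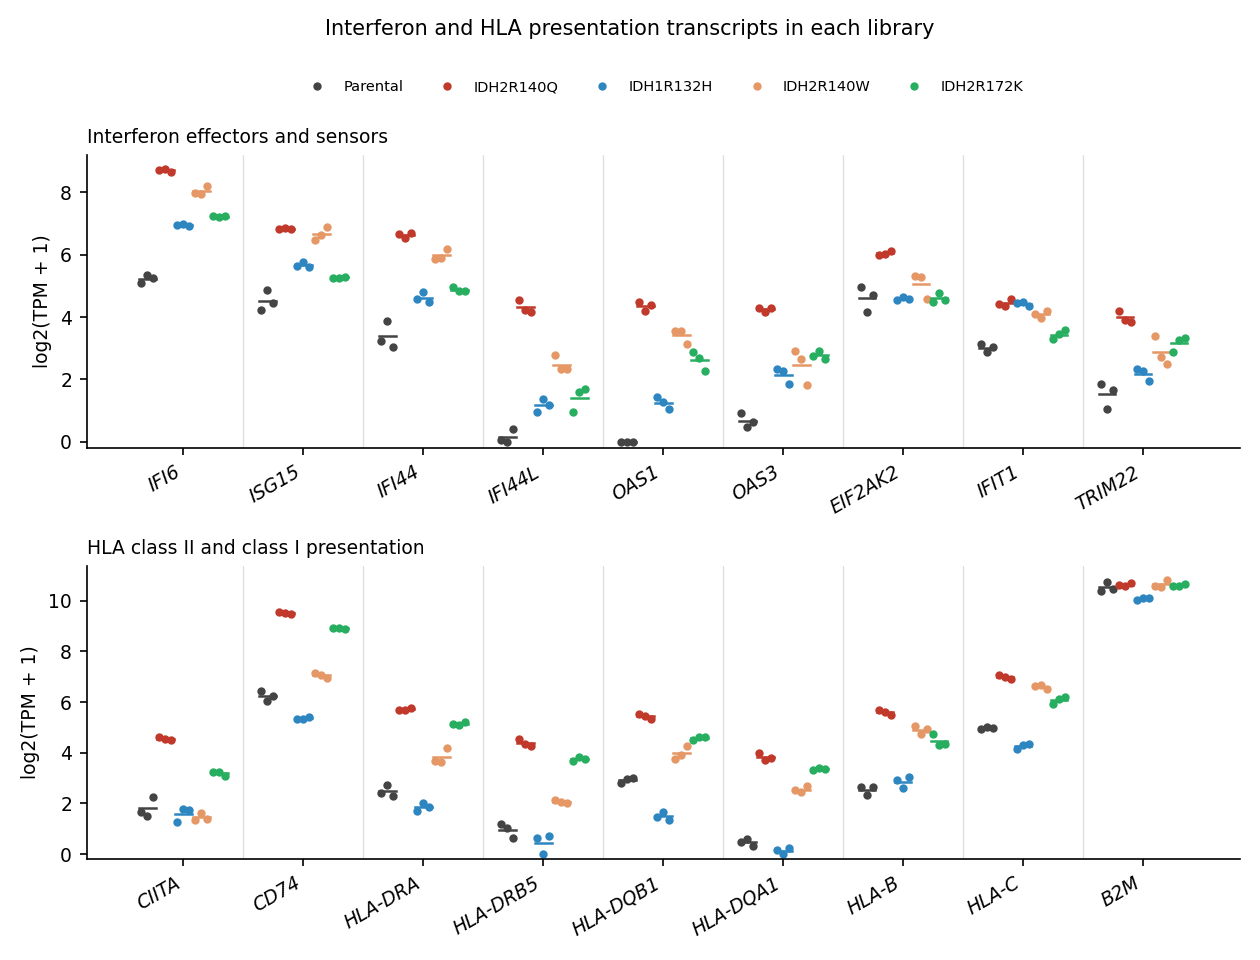
Level of 9 interferon-induced genes (top) and 9 genes of HLA presentation (bottom) on the log2(TPM + 1) scale in each of the 15 libraries, with 1 point per library and a bar at each group mean. IDH2R140Q is the highest group for IFI6, IFI44, IFI44L, OAS1, OAS3, CIITA, CD74 and HLA-DRB5, and B2M lies near the same level in all groups.

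The cytokine axis was examined because GM-CSF was present in one medium only. GM-CSF signals through a receptor of CSF2RA and the shared beta chain CSF2RB to JAK2, STAT5 and ERK. CSF2RB was at 77.3, 50.1 and 72.2 TPM in Parental and at 120.2, 117.5 and 115.2 in IDH2R140Q (log2 difference 0.84 ± 0.148, limma adjusted p = 0.000462), under 2-fold. Of 24 STAT5 feedback genes and targets 3 fell (12.5%, against 2.47% of all genes) and none rose. The list median was −0.25 beside 0.23 for all genes. ID1, an inhibitor of helix-loop-helix factors, was at 427, 560 and 445 TPM against 98.7, 106.9 and 101.0 (−2.20 ± 0.087, 4.13e-10). The cytokine LIF fell from 11.97 ± 2.65 to 1.68 ± 0.278 TPM (−2.26), and the third gene was SOCS3. PIM1, a STAT5-induced kinase, was at 202 ± 1.79 against 246 ± 27.9 TPM and was not called (−0.28).

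Of 30 cytokines and growth factors 4 rose (13.3%) and 3 fell (10.0%), against 7.56% and 2.47% of all genes. After quantile normalisation 6 fell. FGF13, an intracellular homologue of fibroblast growth factors, was at 43.6, 39.7 and 46.6 TPM in Parental and at 0, 0 and 0.05 in IDH2R140Q (−5.44 ± 0.149, limma adjusted p = 9.81e-12), and at 9.44 ± 0.159, 3.65 ± 0.863 and 2.72 ± 0.565 in IDH1R132H, IDH2R140W and IDH2R172K. CSF2, the gene of GM-CSF itself, fell from 4.997 ± 0.359 to 1.89 ± 0.0902 TPM (−1.05), while it was at 10.4 ± 1.11 in IDH2R140W and 9.64 ± 0.782 in IDH2R172K. IL7, a lymphoid growth factor, was listed at 0 throughout Parental, while IDH2R140Q held 5.25, 2.78 and 3.88 TPM, with 0.367 or less on average in the other edited lines. BMP6 rose from 3.99 ± 0.661 to 23.4 ± 1.75 TPM (2.29) and ANGPT2, a vessel growth regulator, from 18.9 ± 3.86 to 53.4 ± 2.03 (1.47). Among chemokine receptors CXCR4, which holds progenitors in the marrow, was listed at 0 throughout Parental, while IDH2R140Q held 6.34, 6.37 and 6.24 TPM, against 0.947 or less on average in the other edited lines (log2 difference from those lines 2.23 ± 0.141, limma adjusted p = 8.05e-08).

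Of 35 NF-kB factors and inflammatory targets 2 rose, CD40, a co-stimulatory receptor (2.30 ± 0.423 to 34.7 ± 2.18 TPM, 3.44), and BIRC3, an inhibitor of cell death (0.29 ± 0.0781 to 2.46 ± 0.574, 1.41). This share lies near the background of 7.56%. CD40 was at 28.1 ± 2.18 TPM in IDH1R132H, 6.04 ± 1.01 in IDH2R140W and 46.75 ± 3.82 in IDH2R172K.

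Among genes of cell adhesion and matrix most did not pass the test, and more rose than fell. Of 21 integrins 5 rose (23.8%, against 7.56% of all genes) and none fell. Beside ITGB3 these were ITGB4, the partner of ITGA6 in the laminin receptor (3.56 ± 1.24 to 47.1 ± 8.61 TPM, 3.42), ITGA6 itself (2.05 ± 0.556 to 12.1 ± 0.822, 2.12), ITGA8 (2.45) and ITGB5 (1.98). Of 34 cadherins, selectins and other adhesion molecules 7 rose (20.6%) and none fell, with a list median of 0.19 beside 0.23 for all genes. They include CD44, the receptor of hyaluronan, at 222, 149.9 and 212 TPM in Parental and at 886, 855 and 852 in IDH2R140Q (2.17 ± 0.142, limma adjusted p = 4.8e-08), and the neural cadherin CDH2 (6.07 ± 2.01 to 30.4 ± 1.83, 2.19).

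Of 30 matrix proteins 8 rose (26.7%, against 7.56% of all genes) and none fell, and 5 of the list were higher than in the other edited lines. LAMC1, a laminin chain, rose from 1.68 ± 0.70 to 15.2 ± 2.04 TPM (2.62), and the collagen VI chains COL6A1 and COL6A2 from 3.32 ± 1.26 to 20.7 ± 0.17 (2.37) and from 5.36 ± 0.268 to 31.6 ± 2.702 (2.36). Of 38 matrix proteases and inhibitors 8 rose (21.1%) and 2 fell (5.3%), where 2.47% of all genes fell. After either scaling alternative 5 rose and 5 fell, so the balance of that list depended on the scaling. MMP9, the gelatinase, was at 0.36, 0.28 and 0.43 TPM in Parental and at 23.8, 21.1 and 23.5 in IDH2R140Q (4.13 ± 0.107, limma adjusted p = 5.68e-12). SERPINE2, an inhibitor of thrombin, was at 3.37, 2.69 and 3.23 TPM against 53.8, 53.2 and 54.5 (3.75 ± 0.155, 6.42e-10). The summed level of the stromal and epithelial markers, mostly keratins, was lower in IDH2R140Q, while CDH5 of that list rose and COL1A1 and DCN stayed near 0. Their part in these rises was not tested.

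Most members of the metabolic and housekeeping lists were not called, but the list medians were not all near that of all genes. Of 13 mitochondrially encoded genes 2 rose (15.4%, against 7.56% of all genes), MT-ND5 and MT-ND6, which encode subunits of complex I. MT-ND6 was at 170, 788 and 156 TPM in IDH2R140Q and at 95.5, 72.4 and 117.0 in Parental, so the group mean rests on IDH2R140Q replicate 2, without which the log2 difference was 0.80. MT-ND5 was at 0.77 without that replicate (limma adjusted p = 0.0501) and at 0.68 without Parental replicate 2, and after median-ratio scaling at 0.75. Of 73 cytosolic ribosomal proteins 2 fell (2.7%, near the 2.47% of all genes), RPS20 (−1.22) and RPL7 (−1.10, or −0.90 after quantile normalisation). Without Parental replicate 2, whose ribosomal share was high, 2 fell as well. RPS20 and RPL7 lie on chromosome 8, in runs of genes with lowered medians that are given further on. The median of the 73 ribosomal genes was −0.425 beside 0.23 for all genes, and that of 58 nuclear respiratory chain genes was −0.17. Ribosomal protein genes held 13.98%, 13.84% and 13.85% of TPM in IDH2R140Q, against 16.83%, 21.11% and 17.88% in Parental. Of 36 cell cycle drivers and inhibitors 5 rose (13.9%, against 7.56% of all genes), among them E2F1 (29.1 ± 3.50 to 77.5 ± 4.31 TPM, 1.39) and CCNE2 (9.63 ± 0.534 to 23.8 ± 2.40, 1.22). On that list 2 were higher without Parental replicate 2 and 1 after either scaling alternative or with a pseudocount of 5. CDK1, the mitotic kinase, fell from 113 ± 5.74 to 53.3 ± 3.22 TPM (−1.07). Of 38 mitosis genes 1 fell (2.6%, near the 2.47% of all genes), the kinase PLK2 (108 ± 17.99 to 18.6 ± 0.543, −2.47). SLC40A1, the iron exporter ferroportin, was the single call of 20 iron genes (5.0%, below the 7.56% of all genes called higher). It was at 125, 82.5 and 120 TPM in Parental and at 553, 526 and 567 in IDH2R140Q (2.34 ± 0.136, limma adjusted p = 1.52e-08), above all other edited libraries. Of 47 fatty acid and lipid enzymes 3 rose (6.4%, below the 7.56% of all genes). They were the lipase MGLL (7.30 ± 1.78 to 57.7 ± 4.19 TPM, 2.84), the elongase ELOVL7 (2.28) and the desaturase SCD5 (2.11).

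**Figure D4:**
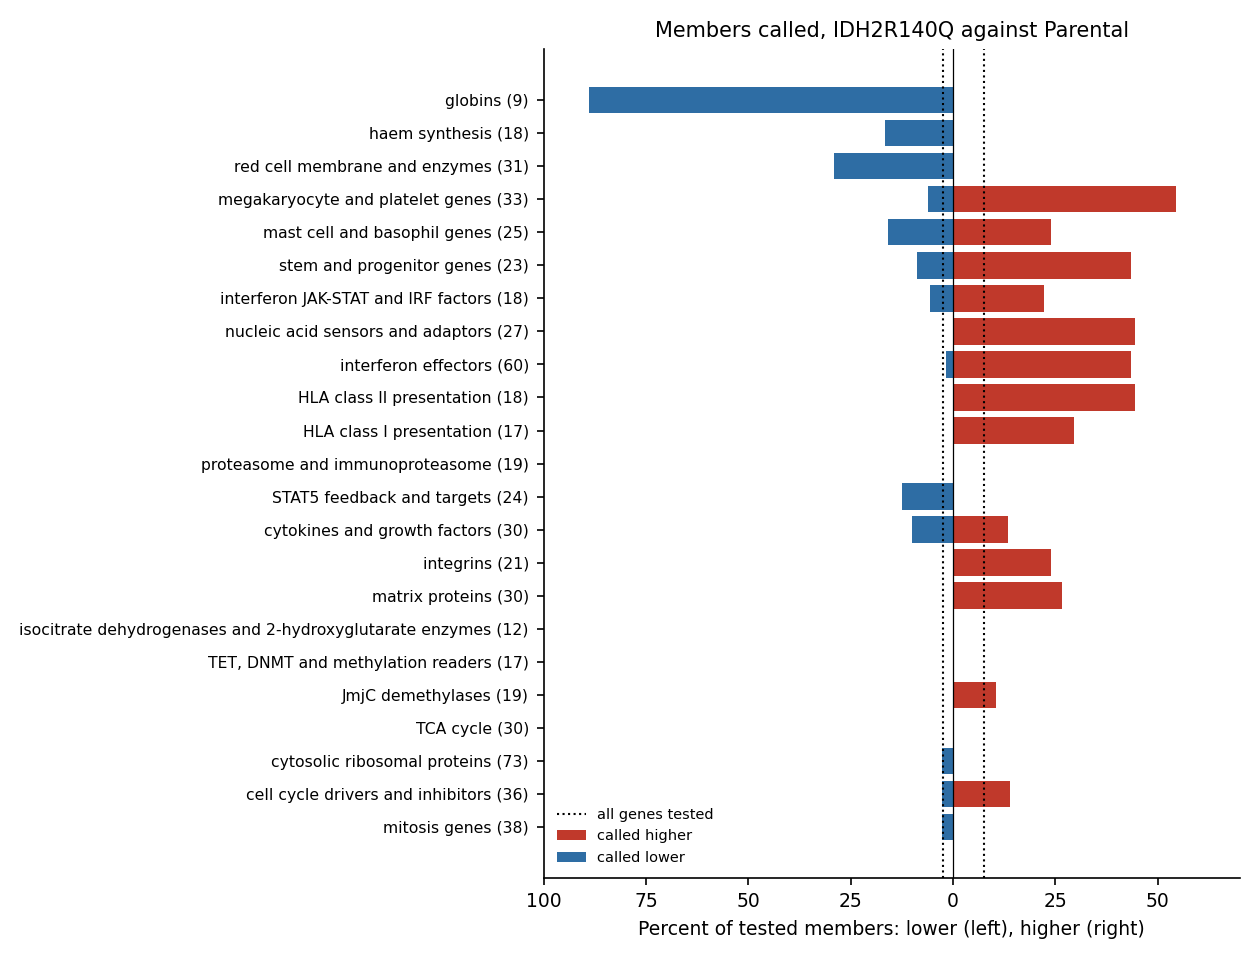
Share of the tested members of 23 gene lists that were called higher (right) or lower (left) in IDH2R140Q against Parental, with the number tested in brackets and the shares of all genes, 7.56% higher and 2.47% lower, as dotted lines. Globins reach furthest to the left with 8 of 9, megakaryocyte and platelet genes furthest to the right with 18 of 33, and the lists of isocitrate dehydrogenases, TET and DNMT genes, the TCA cycle and the proteasome have no call.

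Several single genes stood out. EMC10, a subunit of the complex that inserts membrane proteins at the endoplasmic reticulum, was at 34.8, 28.2 and 34.0 TPM in Parental and at 0, 0.15 and 0 in IDH2R140Q (log2 difference −4.99 ± 0.101, limma adjusted p = 1.19e-12). It was at 33.3 ± 0.885, 53.5 ± 4.11 and 48.3 ± 2.06 TPM in IDH1R132H, IDH2R140W and IDH2R172K, so IDH2R140Q alone had it at or near 0. None of the other 8 EMC subunits tested was called. EMC10 lies on chromosome 19 (hg38, 50476400 to 50490870, plus strand), and of the 3 tested protein-coding neighbours on each side none was called: POLD1 before it was at 126 ± 0.309 against 129 ± 5.07 TPM, and JOSD2 after it at 15.6 ± 1.88 against 16.5 ± 3.12.

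MIPOL1, a gene on chromosome 14 (37197913 to 37552361), showed the opposite pattern. It was at 8.86, 10.3 and 10.2 TPM in Parental and at 101.9, 100.04 and 117 in IDH2R140Q (3.31 ± 0.172, limma adjusted p = 5.01e-09). In the other edited lines it was at 10.7 ± 1.58, 7.38 ± 1.32 and 6.15 ± 1.67 TPM, close to Parental. Of its 3 tested neighbours on each side none was called, with SLC25A21 before it at 4.50 ± 1.24 against 5.76 ± 1.55 and FOXA1 after it at 0.62 ± 0.173 against 1.01 ± 0.359.

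LARP6, which binds collagen messenger RNA, was at 17.2 ± 1.76 TPM against 0.467 ± 0.225 in Parental (3.64), and among the other edited lines it was at 13.3 ± 0.985 in IDH1R132H and under 1 in the rest. FAM178B fell from 57.2 ± 9.39 to 0.923 ± 0.413 TPM (−4.93) and FAM83A from 68.7 ± 6.33 to 2.44 ± 0.656 (−4.35). FAM178B was low in IDH1R132H, IDH2R140W and IDH2R172K as well, at 2.53 ± 0.743, 1.06 ± 0.186 and 2.24 ± 0.126 TPM. FAM83A was at 3.81 ± 1.10, 17.0 ± 1.56 and 12.5 ± 0.87 TPM in the same lines. HBBP1, a pseudogene in the beta-globin cluster, fell from 30.5 ± 2.92 to 0.71 ± 0.21 TPM (−4.21). It was at 7.11 ± 2.09 TPM in IDH1R132H, 54.5 ± 1.22 in IDH2R140W and 82.0 ± 7.49 in IDH2R172K. The unmatched symbol RP5-921G16.1 fell from 23.6 ± 4.08 to 0.0533 ± 0.0503 TPM. It was at 54.2 ± 1.0 TPM in IDH1R132H, 0.08 ± 0.072 in IDH2R140W and 9.10 ± 0.51 in IDH2R172K. AC107016.2, a processed pseudogene, was at 22.5, 31.0 and 7.71 TPM in Parental and was listed at 0 in the 3 IDH2R140Q libraries. Its level varied widely within the other lines, at 6.44 ± 9.54 TPM in IDH1R132H, 0.89 ± 1.54 in IDH2R140W and 21.5 ± 19.4 in IDH2R172K.

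CD3D, known as a chain of the T cell receptor complex, was at 62.6, 82.7 and 60.02 TPM in Parental and at 0.45, 2.90 and 2.76 in IDH2R140Q (−4.63 ± 0.29, limma adjusted p = 3.09e-08). The partner chains CD3E and CD3G were at 0.21 TPM or less in all 6 libraries. Of 13 lymphocyte markers 5 reached 1 TPM in any of them, and the summed level ran from 71.6 to 96.6 TPM in Parental, most of it CD3D, and from 14.5 to 18.9 in IDH2R140Q. PTPRCAP, a partner of the phosphatase CD45, fell from 25.2 ± 1.36 to 1.03 ± 0.406 TPM (−3.71) and the surface glycoprotein CD52 from 85.5 ± 4.31 to 24.1 ± 0.91 (−1.78). Over 49 lymphoid signalling and surface genes 12 rose (24.5%) and 8 fell (16.3%), against 7.56% and 2.47% of all genes.

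Changes were also described along the chromosomes, over protein-coding genes and relative to the median of all genes. On chromosome 10 the 318 genes from ZNF33B to the end (hg38, 42574185 to 133561220) had a median of −0.51 in IDH2R140Q, and 268 of them lay below the median gene. The 100 genes before them had a median of −0.05. The same 318 genes had medians of −0.02 in IDH1R132H, −0.05 in IDH2R140W and 0.06 in IDH2R172K. Cut into runs of 25 neighbours, all 12 runs of the stretch were below 0 in IDH2R140Q, between −0.80 and −0.26. The boundary was chosen after the values were seen, neighbouring genes are not independent, and no test was made.

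The summed level was taken as a share of the TPM of all tested protein-coding genes of the nucleus in each library. The 318 genes held 2.41%, 2.30% and 2.40% of it in Parental, 1.71%, 1.71% and 1.73% in IDH2R140Q and between 2.25% and 2.60% in the other 9 libraries. IDH2R140Q was thus the lowest in all 3 of its libraries. On the stretch 20 genes were called lower (6.29%) and 10 higher (3.14%), against 2.47% and 7.56% of all genes, while after median-ratio scaling 52 were lower and 7 higher, and with a pseudocount of 5, 11 and 4. HK1, the first enzyme of glycolysis (577 ± 138 to 224 ± 7.60 TPM, −1.33), OAT, of ornithine and proline metabolism (281 ± 9.44 to 134 ± 7.18, −1.06), the stress gene DDIT4 (−1.44), the protease PLAU (−1.27) and CDK1 lie on it.

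On chromosome 20 the 199 genes from NECAB3 on (33657087 to 64287821) had a median of 0.70 in IDH2R140Q, and medians of 0.40 in IDH1R132H, 0.35 in IDH2R172K and −0.11 in IDH2R140W. They held 2.31%, 2.33% and 2.29% of that TPM in IDH2R140Q against 1.40%, 1.39% and 1.40% in Parental and 1.28% to 1.91% in the other edited lines. On this stretch 82 genes were called higher (41.2%) and 1 lower, and after median-ratio scaling 39 were higher. MMP9, CD40, E2F1 and TUBB1, named above, lie on it. ID1 lies before it, in a run of 25 genes with a median of −0.62 in IDH2R140Q that was below 0 in all 4 edited lines.

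Of 443 runs of 25 genes over all chromosomes, 34 had a median at least 0.4 from 0 in IDH2R140Q, a limit chosen after the values were seen. Of these 9 lay on chromosome 10, 8 on chromosome 20, 6 on chromosome 19, 4 on chromosome 8 and 2 each on chromosomes 7 and 16. On chromosome 8 the 4 runs follow each other from SLC20A2 to INTS8 (42416475 to 94881746), with medians of −0.43, −0.50, −0.42 and −0.47. IDH2R172K was also low there, between −0.61 and −0.40, while IDH1R132H and IDH2R140W lay between −0.18 and 0.11. RPS20 and RPL7 lie on it. On chromosome 7 the 5 runs from PDGFA to RP9 (497258 to 33109401) were below 0 in all 4 edited lines, between −0.67 and −0.28 in IDH2R140Q. The run from TOMM7 to HOXA9, which holds HOXA4 and HOXA5, had medians of −0.67 in IDH2R140Q, −0.63 in IDH1R132H, −0.60 in IDH2R140W and −0.77 in IDH2R172K. Whether a change in DNA copy number moves with any of these stretches was not tested.

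**Figure D5:**
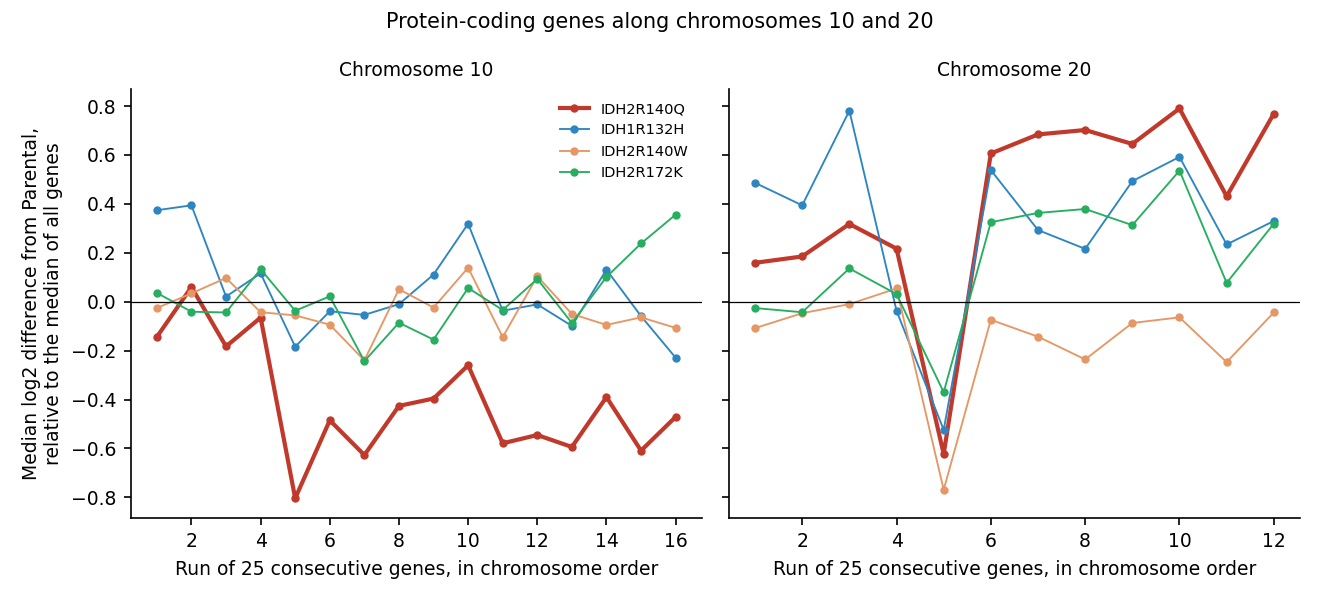
Median log2 difference from Parental, relative to the median of all genes, over runs of 25 consecutive protein-coding genes in order along chromosomes 10 and 20, with 1 line per edited line. IDH2R140Q lies below 0 in all 12 runs of the chromosome 10 stretch, the 3 other lines have medians of −0.05 to 0.06 over the stretch, and on the later part of chromosome 20 IDH2R140Q lies highest.

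Zinc finger genes formed one more group with many calls. Of 216 tested genes named ZNF on chromosome 19, zinc finger factors that mostly repress repeats, 84 rose (38.9%) and 1 fell, with a median of 0.84, and after quantile normalisation 45 rose and with a pseudocount of 5, 18. Of 200 ZNF genes on other chromosomes 17 rose (8.50%), a share near the 7.56% of all genes. That count was 8 without Parental replicate 2, 4 after median-ratio scaling, 3 after quantile normalisation and 1 with a pseudocount of 5. Of 747 other protein-coding genes of chromosome 19, 43 rose (5.76%) and 27 fell. The median of the chromosome 19 ZNF genes was 0.83 in IDH1R132H, 0.49 in IDH2R140W and 0.96 in IDH2R172K, and against those lines none was called higher in IDH2R140Q and 2 were called lower.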

How the data were processed

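RNA of 15 TF-1 libraries was measured by poly(A)-selected, directional RNA sequencing from 0.1 to 1 ug of total RNA, per the labels' protocols. TPM values were deposited by the authors, 1 column per library. STAR 2.7.3, DESeq2, RSEM, HTSeq and hg38 are listed in the submitters' processing notes, and the sources used here do not give the role of each tool, the annotation or the strand setting. Each library sums to between 999999 and 1000001 TPM, and read depth is unknown, so precision comes only from the spread between libraries.

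Rows of 1 symbol were summed (63568 rows, 56624 symbols, 2985 of them on more than 1 row), and 6 rows whose symbols had become ambiguous dates were left out. Positions and gene types came from GENCODE 29, which matched 12513 of 14881 genes tested (84.1%). Genes with at least 1 TPM in 3 libraries were fitted with limma 3.58.1 in R 4.3.3 on log2(TPM + 1), with 1 mean per group over all 15 libraries, a variance trend and Benjamini-Hochberg adjustment over all genes tested. The 2 contrasts were IDH2R140Q minus Parental and IDH2R140Q minus the mean of the other 3 edited lines. The fit was tested on simulated data of 14881 genes for IDH2R140Q against Parental: 198 of 200 changed genes were recovered with 1 false call. That count holds for the simulated data only. Recovery among the measured genes, at low TPM or near the 2-fold limit, was not tested.

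Members, gene lists and tests were chosen with earlier results of these data known. The genes named are IDH1, IDH2, the 12 largest rises and falls against Parental among called genes whose groups do not overlap and whose higher mean is 10 TPM or more, the 8 largest each way against the other edited lines by the same limits, and members of the gene lists. IFNG and genes beside EMC10 and MIPOL1 were named after their values were seen. Alternatives were pseudocounts of 0.1 and 5, a 5 TPM filter or none, median-ratio and quantile scaling, a fit of the compared libraries only, no variance trend, no symbols on several rows, omission of each library in turn and a block for the replicate number. Promoters were read from RefSeq tables of GRCh38.p14. A few items are not reported here.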

Additional observations from a re-analysis of the deposited data

Results flagged for a closer look

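The values below are log2 differences of IDH2R140Q from the mean of the other 3 edited lines, which shared its medium. Each of these genes differed between lines by the limma test of that difference itself, at adjusted p under 0.05, with all 3 IDH2R140Q libraries outside the range of the other 9. They are the 8 largest differences in each direction among genes whose higher mean is 10 TPM or more.

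Higher in IDH2R140Q were MIPOL1 (3.61), the platelet chemokine PPBP (3.01), the small nucleolar RNA SNORD60 (2.95), the interferon-induced IFI44L (2.62), the RNA-binding LARP6 (2.52), and the class II genes CIITA (2.46), CD74 (2.40) and HLA-DRB5 (2.30). Against IDH1R132H alone LARP6 did not pass (0.35, limma adjusted p = 0.41). Nor did SNORD60 against IDH2R140W or IDH2R172K alone (limma adjusted p = 0.0571 and 0.377). SNORD60, a sum of 4 rows, was at 17.6, 17.2 and 17.3 TPM in IDH2R140Q and at 0, 15.3 and 0 in Parental, so the Parental libraries did not share a level. Its adjusted p of 0.0322 (limma) became 0.0857 with no filter and 0.0528 after quantile normalisation, and it ran from 0.0896 to 0.0951 without any 1 of the IDH2R140Q libraries and reached 0.0509 without IDH2R140W replicate 2.

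Lower were EMC10 (−5.43), RP11-462G2.1 (−4.44), the pseudogene HBBP1 (−4.28), HBG2 (−4.21), HBG1 (−3.84), the glutamate receptor gene GRID1 (−3.71) and CD3D (−3.23). RP11-462G2.1 was at 16.3, 19.9 and 16.11 TPM in Parental, between 15.8 and 27.9 on average in the other edited lines, and at 0, 0.27 and 0 in IDH2R140Q. RP3-460G2.2, also among the 8 lower genes, was listed at 0 in the 3 IDH2R140Q libraries, so no difference is given. It was at 13.3 ± 4.16 TPM in Parental, 28.4 ± 2.60 in IDH1R132H, 1.42 ± 0.554 in IDH2R140W and 42.3 ± 2.57 in IDH2R172K. GRID1, on the chromosome 10 stretch, was at 58.9 ± 4.20 TPM in IDH1R132H and 37.7 ± 2.09 in IDH2R172K, against 0.693 ± 0.176 in IDH2R140Q and 2.16 ± 0.353 in Parental.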

How the results depend on the processing

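Against Parental the count of 1492 called genes became 536 with a pseudocount of 5 (377 higher, 159 lower). With a pseudocount of 0.1 the higher calls numbered 1706. Median-ratio scaling gave 719 higher and 577 lower calls, quantile normalisation 639 and 609, so the share called higher went from 75.4% to 55.5% and 51.2%. Against the other edited lines the 461 calls became 873 with a pseudocount of 0.1 (535 higher, 338 lower) and 128 with 5 (68 higher, 60 lower), 178 were higher at 5 TPM, and the share higher went from 62.0% to 49.0% and 45.8% under the same 2 scalings. With a pseudocount of 5 the lists held 5 lower red cell genes, 12 higher interferon effectors, 5 higher sensors and 5 higher stem and progenitor genes, and, of groups described with more calls, 1 higher and 1 lower mast cell and basophil gene, 3 higher and 1 lower matrix protease or inhibitor, 3 higher class I genes, and 8 higher and 4 lower lymphoid genes. Among the named genes called against Parental, 27 were no longer called there: RHCE, TUBB1, GP9, KIT, CLC, CPA3, MS4A2, RUNX2, HOXA4, HOXA5, OAS2, DDX60, MX2, HLA-DPB1, CSF2, IL7, BIRC3, JMJD1C, CCNE2, PLAU, CALD1, BRCA2, BRIP1, FANCF, IL18R1, MPO and CDH5. Each kept its direction. Quantile normalisation ended the call of 9 named genes and median-ratio scaling of 6. Sensors fell to 6 at 5 TPM, HLA class II to 3 without symbols on more than 1 row, and stem and progenitor genes to 6 after median-ratio scaling and 5 after quantile normalisation.

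Leaving out 1 library gave 1352 to 1743 calls against Parental (969 to 1368 higher, 353 to 387 lower) and 447 to 493 against the other lines (272 to 310 higher, 167 to 183 lower). In the same runs the lists held 8 globins each time, 8 to 10 other red cell genes, 16 to 21 megakaryocyte genes, 23 to 26 effectors, 11 to 13 sensors, 8 to 10 class II genes, 8 to 10 stem and progenitor genes and 8 to 10 matrix genes. IDH1 ran from −0.30 to −0.18 and IDH2 from 0.46 to 0.54. GATA2 and B2M, neither of them called, changed sign after median-ratio scaling (−0.14 and −0.16). Replicate numbers did not pair the libraries: deviations of same-numbered libraries correlated at 0.03, −0.029 and −0.027, and other pairs between −0.069 and 0.079. With the replicate number as a block 1493 genes were called against Parental (1125 higher, 368 lower) and 462 against the other lines (288 and 174). The causes of these shifts were not tested.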

Other observations

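Several gene groups not described above held a few calls each. Of 10 neutrophil granule genes 1 rose and 1 fell (10.0% each, against 7.56% and 2.47% of all genes). The protease CTSG rose (0.467 ± 0.486 to 11.003 ± 1.98 TPM, log2 difference 3.07) but was lower than in the other edited lines (−1.62). The peroxidase MPO fell (1.81 ± 1.11 to 0.207 ± 0.0808, −1.15, or −0.85 without Parental replicate 1, under 2-fold). Of 27 monocyte and macrophage genes 2 rose, among them the Fc receptor FCGR2A (43.8 ± 7.27 to 93.4 ± 4.16, 1.09), and 3 fell, among them the adaptor TYROBP (218 ± 14.7 to 87.3 ± 5.34, −1.31) and the transcription factor CEBPD (9.75 ± 2.05 to 2.27 ± 0.465, −1.71). After either scaling alternative none of that list rose. Its shares were 7.4% higher and 11.1% lower, against 7.56% and 2.47% of all genes. The kinase AKT1 rose from 113 ± 21.0 to 254 ± 9.71 TPM (1.18, or 0.92 after median-ratio scaling, under 2-fold) and the lipid kinase subunit PIK3CD from 10.2 ± 2.55 to 31.2 ± 0.391 (1.54), while the GTPase RHOB fell from 15.8 ± 1.92 to 0.597 ± 0.172 (−3.39). Of 53 actin and myosin genes 11 rose (20.8%) and 2 fell (3.8%). The motor MYO6 (0.643 ± 0.438 to 6.28 ± 0.545, 2.18), the actin-binding caldesmon CALD1 (0.0133 ± 0.0231 to 2.36 ± 0.266, 1.73) and the tropomyosin TPM4 (199 ± 55.9 to 467 ± 31.7, 1.27) were among the higher.

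Of 27 p53 targets 2 fell (7.4%, against 2.47% of all genes), PLK2 and the mitochondrial reductase FDXR (60.3 ± 4.05 to 15.7 ± 1.74 TPM, −1.88), and none rose. Of 36 genes of recombination and crosslink repair 3 rose, BRCA2 (1.31), BRIP1 (1.24) and FANCF (1.16), a share of 8.3% near the 7.56% of all genes. That count was 5 without Parental replicate 1, 5 without Parental replicate 3 and 0 after quantile normalisation or with a pseudocount of 5. Of 29 BCL2 family and death genes 3 rose (10.3%, near the 7.56% of all genes), BCL2 and BIRC3 among them. Of 27 ERK feedback genes 1 rose (3.7%) and 3 fell (11.1%), with the ETS factor ETV4 at 51.6 ± 6.43 against 17.4 ± 0.30 TPM in IDH2R140Q (−1.51). Of 42 other cytokine receptors 3 rose (7.1%, near the 7.56% of all genes) and 5 fell (11.9%, against 2.47%). Among those that fell were the receptor kinase AXL (19.3 ± 4.30 to 5.41 ± 0.689, −1.65) and the interleukin receptor chain IL18R1 (4.37 ± 0.615 to 0.78 ± 0.174, −1.59). The complement receptor C5AR2 fell from 7.06 ± 1.93 to 0.277 ± 0.0681 TPM (−2.63).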
